A study of Mus musculus with 3 samples.

Results

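The genes described here are 10 components of transforming growth factor beta (TGF-beta) and bone morphogenetic protein (BMP) signalling in mouse N2A neuroblastoma cells. They were the type I receptor Tgfbr1, the type II receptors Tgfbr2, Bmpr2 and Acvr2b, the receptor-regulated Smads Smad2, Smad3 and Smad5, the common Smad4, and the inhibitory Smads Smad6 and Smad7. They were taken by gene symbol from the GENCODE mouse M21 annotation of GRCm38, and all 10 were found among the 21021 protein-coding genes for which M21 gives a 3′UTR. Ago2 HITS‐clip, in which ultraviolet light fixes the Argonaute protein to the RNA it holds before immunoprecipitation and sequencing, was performed on 3 samples of untreated N2A cells. All samples formed 1 group: cells at 80% confluency, crosslinked by 1 exposure at 400 and then 2 at 200 mJ/cm2, with no knockout, treatment or input control analysed here. N2A is an established line from a mouse neuroblastoma. It is not stated in the labels whether the samples came from separate cultures, so the spread between them may be technical.

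In TGF-beta signalling, a dimeric ligand brings together type II receptor kinases, which bind it first, and type I receptor kinases, which they phosphorylate. The type I receptor then phosphorylates receptor-regulated Smads, Smad2 and Smad3 in the TGF-beta and activin branch and Smad1, Smad5 and Smad9 in the BMP branch, and these enter the nucleus with Smad4. Smad6 and Smad7 are induced by the pathway and block it at the receptors. A microRNA (miRNA) guides Argonaute to a transcript mainly by pairing of its seed, positions 2 to 8 from its 5′ end, with a site that usually lies in the 3′UTR.

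Sequences that carried the results are shown first. The mature miRNAs below, taken from RefSeq for GRCm38.p6, stand for seed families whose match lay under peaks of all 3 libraries in these genes and that had a peak on a mature arm of at least 1 family member in all 3 libraries. They are shown for the sites printed next and the Smad7 sites. In the miR-19 family that arm was miR-19a-3p, and in the miR-181 family the arms were miR-181c-5p and miR-181d-5p. The seed is in capitals.
miR-21a-5p: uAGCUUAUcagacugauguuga
miR-15a-5p: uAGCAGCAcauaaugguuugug
miR-17-5p: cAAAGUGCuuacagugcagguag
miR-19b-3p: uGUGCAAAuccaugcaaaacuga
miR-130a-3p: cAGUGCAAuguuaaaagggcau
miR-142a-5p: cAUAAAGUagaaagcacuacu
miR-181a-5p: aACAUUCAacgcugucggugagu
miR-148a-3p: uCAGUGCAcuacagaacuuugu
miR-210-3p: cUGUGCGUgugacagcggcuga
miR-192-5p: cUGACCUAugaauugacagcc

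The 3′UTR sites below, read from GRCm38 on the transcribed strand, were each covered by a peak in all 3 libraries. Capitals mark the seed match, with the A that follows it where the match was an 8mer, and in the Tgfbr2 window all bases of 4 overlapping matches. The Tgfbr2 window lies at chr9:116090068-116090097 on the minus strand. The other sites are on the plus strand, those of Tgfbr1 at chr4:47411178-47411201, chr4:47413967-47413990 and chr4:47413144-47413167, and those of Bmpr2 at chr1:59872927-59872950 and chr1:59872796-59872819, in the order printed.
Tgfbr2, miR-17-5p, miR-19b-3p, miR-130a-3p and miR-142a-5p: aacagccaataacgTTTGCACTTTATtaat
Tgfbr1, miR-181a-5p: ttccttggttcacttTGAATGTAc
Tgfbr1, miR-148a-3p: tgtgatttcattccaTGCACTGAa
Tgfbr1, miR-192-5p: acttaaaaattgagaTAGGTCAtg
Bmpr2, miR-210-3p: accacaaaatttcacACGCACAAa
Bmpr2, miR-192-5p: gaaaggtagtaagtaTAGGTCAtt

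The deposited table held 711377, 498071 and 829936 peaks in replicates 1, 2 and 3. Peaks of at most 85 nt, close to the narrowest width of 79 nt, made up 71.5%, 61.4% and 52.8% of them. No read counts were analysed here, so the depth behind a peak is unknown and peaks were counted, not weighed. Transcript levels were not analysed either, so more transcript and more Ago2 per transcript cannot be told apart. The labels give the same approximate number of cells for each of the 3 samples, and within such bulk samples fewer cells of a type and less RNA per cell cannot be told apart. Of 15 neuronal and neuroblastoma marker genes, 11 had an exonic same-strand peak in all 3 libraries, against 39.1% of all genes, with 106, 208 and 233 such peaks in total, while Th had 0. In replicates 1, 2 and 3, summed exonic peaks were 15, 10 and 15 over 6 myeloid markers, 1, 0 and 1 over 5 hepatocyte markers, 8, 0 and 0 over 5 muscle markers, 14, 23 and 7 over 5 fibroblast markers and 8, 4 and 15 over 5 oligodendrocyte markers. Of these 26 markers of other cell types, 14, 6 and 8 had a peak in replicates 1, 2 and 3. In replicate 1 alone 8 markers had a peak, namely Myh1, Myh4, Ckm, Tnnt3, Col1a1, Dcn, Mag and Mobp, against 1 in replicate 2 alone and 2 in replicate 3 alone. The shares of all genes with an exonic peak in each library, or in 1 library alone, were not computed. These counts therefore do not show that replicate 1 stood apart in these markers. Ptprc, Col1a2, Pdgfra and Mbp were among the markers of other cell types with a peak in all libraries, and the part of these markers in the results, the low 3′UTR counts of replicate 1 included, was not tested.

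The 10 genes carried far more peaks in their 3′UTRs, relative to length, than in their introns. Same-strand peaks in the 3′UTRs numbered 72, 207 and 203 in replicates 1, 2 and 3 (161 ± 76.8, SD, n = 3), out of 307, 418 and 718 in the whole genes. Replicate 1 was the low library in the 3′UTR although it did not hold the fewest peaks. Per 1000 nt, the 3′UTRs held 1.89, 5.42 and 5.31 peaks (4.21 ± 2.01, n = 3). The introns held 0.352, 0.222 and 0.699 peaks per 1000 nt (0.424 ± 0.247), and the coding sequences 0.938, 3.58 and 3.87 (2.80 ± 1.62). In every library the order was 3′UTR above coding sequence above intron. Gene by gene, the 3′UTR was above the introns in 28 of 30 pairs of gene and library and above the coding sequence in 24 of 30. Each difference had the same sign in all 3 libraries, where an exact two-sided sign-flip permutation test cannot go below p = 0.25.

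**Figure D1:**
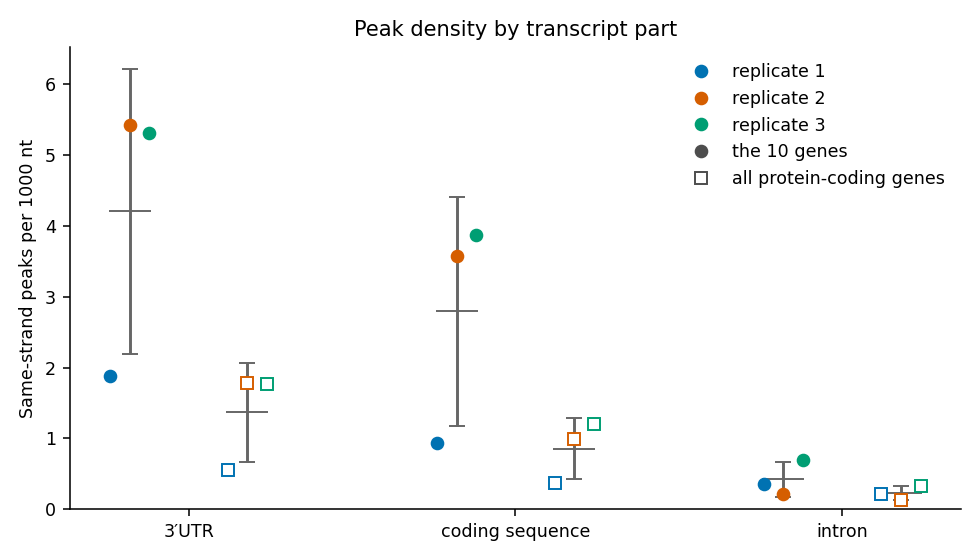
Same-strand peaks per 1000 nt of 3′UTR, coding sequence and intron in each library, for the 10 genes together (filled circles) and for all protein-coding genes (open squares); the horizontal line and bar are the mean ± SD over 3 libraries. The 3′UTR values of the 10 genes, 1.89, 5.42 and 5.31, lie above those of all genes, 0.559, 1.78 and 1.77, in the same library.

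Over all protein-coding genes the 3′UTRs held 0.559, 1.78 and 1.77 peaks per 1000 nt, and over those in the top class, when genes were split by 3′UTR length into 5 classes of like size, 0.607, 1.91 and 1.82. The 10 genes were above both in each library, by 2.76 ± 1.29 peaks per 1000 nt (n = 3) over the long 3′UTRs. As a share of same-strand gene peaks, the 3′UTR took 23.5%, 49.5% and 28.3% in replicates 1, 2 and 3. Their 95% Wilson intervals ran from 19.1 to 28.5%, from 44.8 to 54.3% and from 25.1 to 31.7%. The intervals treat peaks as independent, but peaks overlap and cluster, with 44 peaks of Tgfbr1 in 9 stretches in replicate 2. They are therefore too narrow to judge the difference between libraries, and replicate 2 had the highest share. Over all genes the shares were 7.08%, 24.1% and 12.5%. Introns of the 10 genes held 216, 136 and 429 same-strand peaks, coding sequences 16, 61 and 66, and 5′UTRs 3, 11 and 15. An intronic peak in all 3 libraries was present in all 10 genes, against 57.3% of all genes, and a coding peak in 7, against 19.4%. Bmpr2 and Smad7 were the 2 genes with a 5′UTR peak throughout, against 1.3%.

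Peaks in these 3′UTRs lay almost entirely on the transcribed strand, which is the strand Ago2 would meet in the mRNA. On the opposite strand there were 6, 1 and 10 peaks, against 72, 207 and 203 on the transcribed strand, which gives ratios of 12, 207 and 20.3. Over all genes the ratios were 3.86, 16.9 and 11.9. Pooled over the 3 libraries, 482 peaks faced 17, a ratio of 28.4, which became 17.2 without replicate 2. Every one of the 17 was at most 85 nt wide, while the 388 peaks of 86 to 200 nt and the 14 wider ones all lay on the transcribed strand. Narrow peaks of at most 85 nt were 27.8%, 17.4% and 11.8% of the same-strand 3′UTR peaks of the 10 genes, below their share in each whole library. In the introns the strands were closer, with same-strand peaks 3, 2.52 and 6.31 times as many as those on the opposite strand. No other annotated gene overlapped any of the 10 3′UTRs.

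Every library showed a 3′UTR peak for 8 of the 10 genes, against 22.4% of all genes. The exceptions were Acvr2b and Smad6, which had none in replicate 1. The 3′UTRs were long, and the share of genes with a peak in all libraries rose with length, from 1.88% in the shortest class to 9.13%, 19.2%, 31.8% and 49.9% in the longest. Tgfbr1, Tgfbr2, Bmpr2, Smad2, Smad3 and Smad5 belonged to the longest class, from 2385 nt, and all 6 had a peak in every library. A recurrent region, meaning at least 8 consecutive nt covered in all 3 libraries, was found in 7 of the 10 genes, against 14.3% of all genes and, from the shortest class to the longest, 2.05%, 6.45%, 12.7%, 20.1% and 30.3%. The 7 were Tgfbr1, Tgfbr2, Bmpr2, Smad2, Smad5, Smad4 and Smad7. Replicate 1 set these numbers: without it, all 10 genes had a region covered in both remaining libraries, and the 46 regions became 111. More than 100 nt of recurrent length per 1000 nt of 3′UTR was reached by 4 genes, Tgfbr1, Bmpr2, Smad4 and Smad7, against 4.77% of all genes, and Tgfbr1 and Bmpr2 were 2 of 6 in the longest class, against 6.02%. On the opposite strand 1 of the 10 genes, Smad2, had a peak in all libraries, against 2.15% of all genes, and the same gene had a recurrent region there, against 0.737%.

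**Figure D2:**
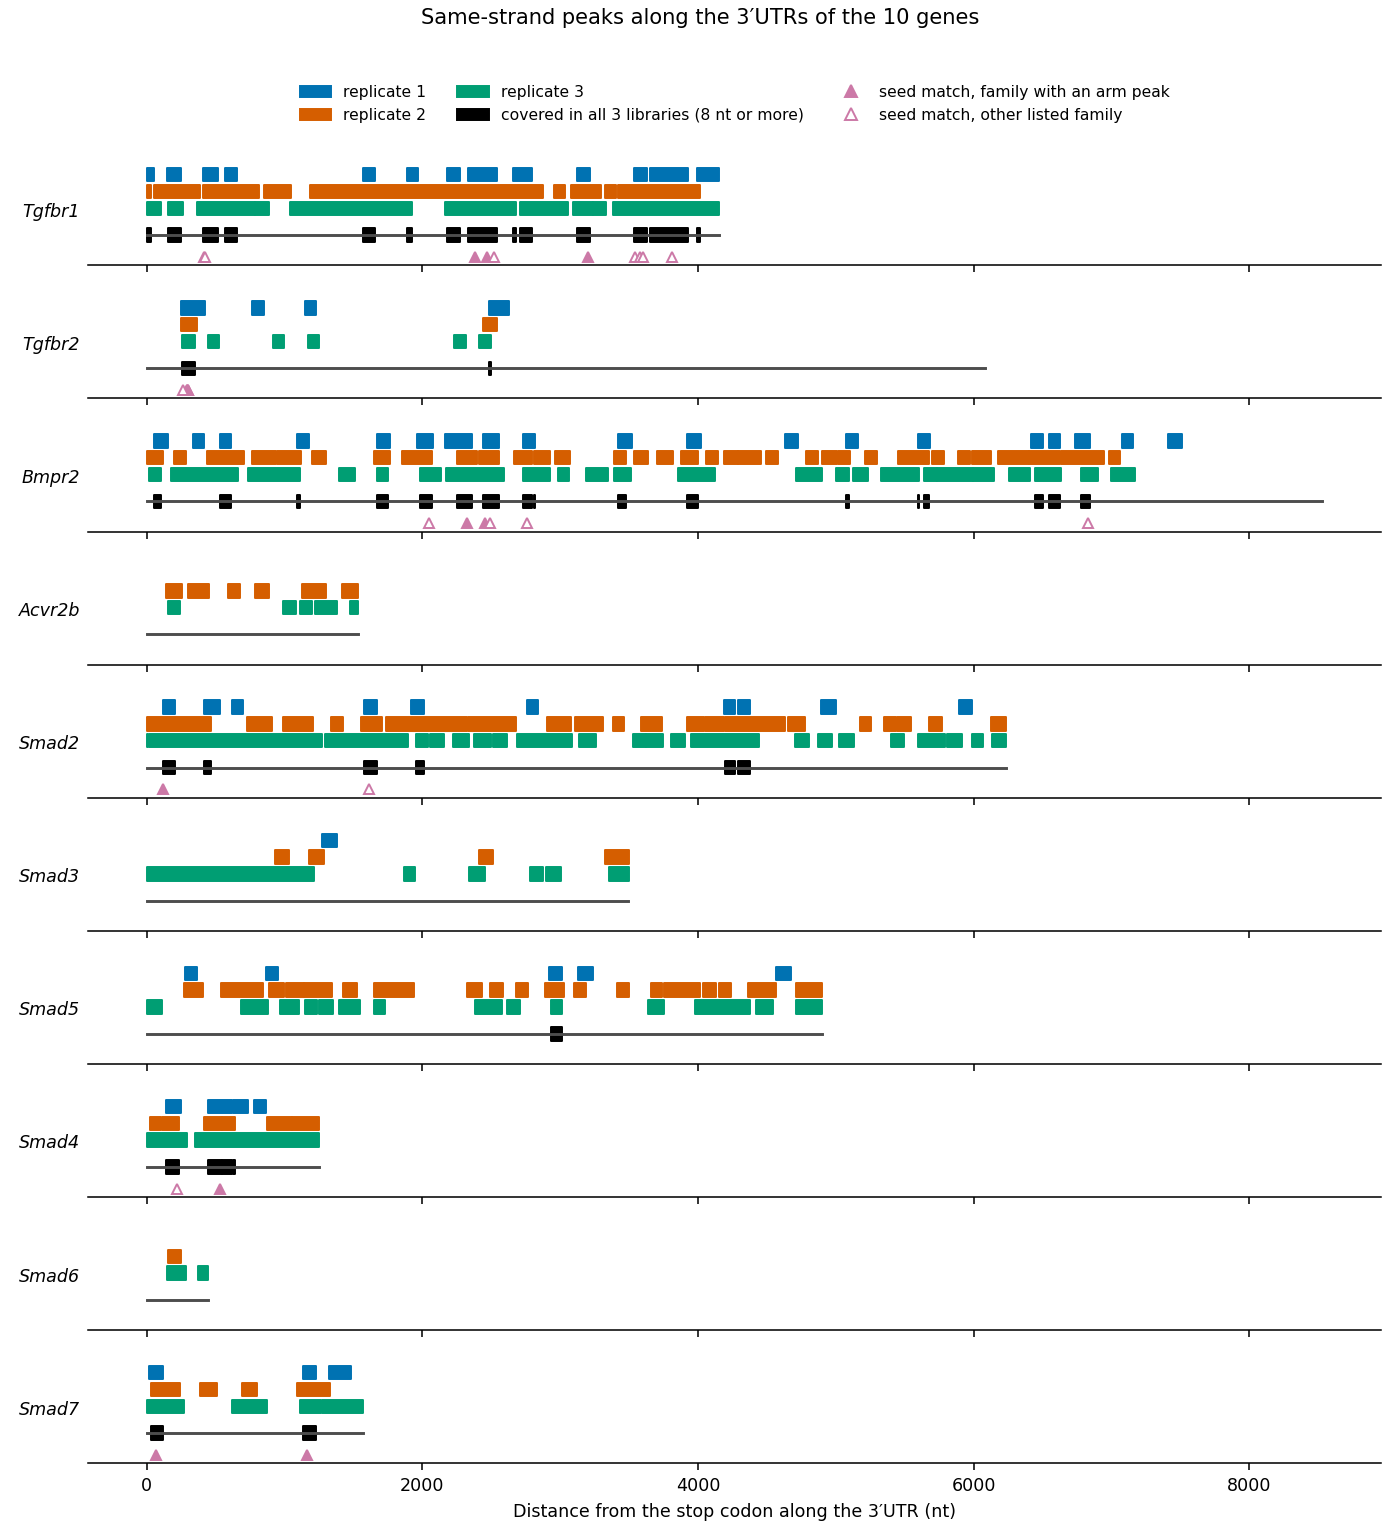
Bases under a same-strand peak in replicates 1, 2 and 3 (blue, orange and green) along each 3′UTR, drawn as a grey line to scale from the stop codon in nt; black blocks are regions of 8 nt or more covered in all 3 libraries and triangles are seed matches in them, filled where the family's miRNA arm also had a peak in all libraries. Tgfbr1 and Bmpr2 carry 14 and 17 of the 46 black blocks, Acvr2b, Smad3 and Smad6 carry 0, and the covered part of Tgfbr2 ends at 2628 nt of 6085.

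Of the receptors, Tgfbr1 was covered most densely. Tgfbr1 (ENSMUSG00000007613.15) encodes the type I receptor kinase that phosphorylates Smad2 and Smad3, and its 3′UTR spans 4154 nt in 1 exon at chr4:47410778-47414931. It held 19, 44 and 28 peaks in replicates 1, 2 and 3, which covered 38.4%, 87.3% and 84.1% of its bases (69.9 ± 27.4%, n = 3). Replicate 1 was the low library, and in replicates 2 and 3 most of the 3′UTR was under a peak as deposited. The covered shares of all genes count whole peaks, including bases at either end that were read as padding. Shares without those bases were not computed, so how far the padding sets them was not tested. Of 4203 other genes in the longest class, 24, 8 and 276 had more peaks per 1000 nt. Its 14 recurrent regions added up to 1345 nt, or 32.4% of the 3′UTR, and 17 of those 4203 genes had a larger share. At least 10 recurrent regions were found in 0.381% of all genes, and Tgfbr1 and Bmpr2 were both among them. The longest region of the set, 277 nt at chr4:47414426-47414702, lay near the end of the Tgfbr1 3′UTR, 3649 nt from the stop codon, under 4, 4 and 2 peaks. A further one of 204 nt lay at chr4:47413112-47413315. The coding sequence of Tgfbr1 held 4, 9 and 10 peaks and its introns 38, 19 and 59.

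Bmpr2 (ENSMUSG00000067336.6), the type II receptor for BMPs, had the longest 3′UTR of the set, 8529 nt at chr1:59870486-59879014. It held 22, 54 and 49 peaks, which covered 22.3%, 52.8% and 50.8% of it (41.9 ± 17.1%, n = 3). The low library was again replicate 1. The 17 recurrent regions added up to 1024 nt, or 12.0% of the 3′UTR, and 10 genes in the genome had more regions. Its last covered bases lay 7508, 7060 and 7168 nt from the stop codon in the 3 libraries, so the end of the annotated 3′UTR was not covered in any of them.

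Tgfbr2 (ENSMUSG00000032440.13), which binds TGF-beta and activates Tgfbr1, stood at the other end of the receptors by mean covered share. In replicate 1 Acvr2b was lower, at 0%. Its 3′UTR of 6085 nt at chr9:116084293-116090377, on the minus strand, held 6, 2 and 6 peaks, which covered 7.97%, 3.50% and 8.35% of it (6.61 ± 2.70%, n = 3). The values were low in every library, and replicate 2 rather than replicate 1 was the lowest. Tgfbr1 was above Tgfbr2 in all 3 libraries, by 63.3 ± 28.8 percentage points, and Bmpr2 was above Tgfbr2 by 35.3 ± 18.5 (exact sign-flip permutation p = 0.25 for both, the smallest 3 libraries allow). Tgfbr1 had the highest and Tgfbr2 the lowest mean covered share of the set, so a comparison of these extremes is descriptive. Tgfbr2 had 0 peaks in its coding sequence in all libraries. Within the longest class, 20.9%, 58.4% and 45.1% of the other genes had more 3′UTR peaks per 1000 nt than Tgfbr2, which put Tgfbr2 in the upper or middle part of that class. Its 2 recurrent regions were 94 nt and 13 nt long, and the first, at chr9:116090029-116090122, is the one that holds the 4 overlapping matches printed above.

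Acvr2b (ENSMUSG00000061393.14), a type II receptor for activins and related ligands, had a 3′UTR of 1534 nt at chr9:119433462-119434995. It held 0, 9 and 6 peaks, which covered 0%, 48.5% and 31.5%. With no peak in replicate 1 it could have no recurrent region, and 4 regions were covered in both other libraries. On the opposite strand it had 1, 0 and 2 peaks.

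The receptor-regulated Smads differed widely. Smad2 (ENSMUSG00000024563.16) and Smad3 (ENSMUSG00000032402.12) are close relatives that carry the TGF-beta and activin signal. Smad2, with a 3′UTR of 6233 nt at chr18:76304731-76310963, held 10, 44 and 55 peaks, which covered 14.7%, 63.2% and 74.7% of it (50.9 ± 31.8%, n = 3). Smad3, with a 3′UTR of 3495 nt at chr9:63646767-63650261 on the minus strand, held 1, 6 and 7 peaks. These covered 3.06%, 13.5% and 50.3%, but the last value rests on 1 peak of 2827 nt in replicate 3 whose midpoint lies outside the 3′UTR, and without it 18.3% was covered. Smad2 was above Smad3 in each of the 3 libraries, by 28.6 ± 19.4 percentage points with that peak included (exact sign-flip permutation p = 0.25).

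Smad2 had 6 recurrent regions with 454 nt in all, or 7.28% of the 3′UTR, and Smad3 had 0. Smad2 was also the gene with the recurrent region on the opposite strand, 79 nt at chr18:76304881-76304959, where the transcribed strand was covered in all 3 libraries too. The opposite-strand peaks of Smad2 numbered 2, 1 and 2. The only peak of replicate 1 in the Smad3 3′UTR, at 1275 to 1381 nt from the stop codon, overlapped a peak of replicate 2 at its edge and no peak of replicate 3.

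Smad5 (ENSMUSG00000021540.16), which carries the BMP signal, had a 3′UTR of 4899 nt at chr13:56737479-56742377. It held 5, 28 and 22 peaks, which covered 9.94%, 56.7% and 42.2% (36.3 ± 24.0%, n = 3). Although 22 regions were covered in at least 2 libraries, 1 region of 80 nt, at chr13:56740409-56740488, was common to all 3, and it held no listed seed match. Smad5 was the member whose mean density was higher in the coding sequence than in the 3′UTR. Per 1000 nt it held 0.715, 6.44 and 9.30 peaks in the coding sequence and 1.02, 5.72 and 4.49 in the 3′UTR. The coding sequence was the higher of the pair in replicates 2 and 3.

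Smad4 (ENSMUSG00000024515.13), the shared partner of both branches, was the most densely covered of the Smads. Its 3′UTR of 1249 nt at chr18:73639009-73640257, on the minus strand, held 5, 11 and 16 peaks, which covered 38.5%, 64.8% and 95.0% of it (66.1 ± 28.2%, n = 3). Among 4203 other genes of the middle class of 3′UTR length, 60, 100 and 4 had more peaks per 1000 nt. Its 4 recurrent regions added up to 280 nt, or 22.4% of the 3′UTR, and they were centred between 14.9% and 50.6% of the way along it. Smad4 also held 23, 20 and 102 intronic peaks, and the value of replicate 3 was the highest intron count of any member in any library.

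The inhibitory Smads differed in 3′UTR length. Smad7 (ENSMUSG00000025880.11), which blocks TGF-beta receptors, had 1570 nt at chr18:75394366-75395935 with 4, 8 and 11 peaks, covering 22.4%, 42.9% and 62.2% (42.5 ± 19.9%, n = 3). Smad6 (ENSMUSG00000036867.7), which acts mainly on BMP signalling, had 448 nt at chr9:63953076-63953523 on the minus strand with 0, 1 and 3 peaks, covering 0%, 22.1% and 48.0%. Smad7 was above Smad6 in every library, by 19.1 ± 4.37 percentage points (exact sign-flip permutation p = 0.25). Smad7 had 2 recurrent regions with 177 nt in all, or 11.3% of the 3′UTR, and Smad6 had 0. The introns of Smad7 held 5, 7 and 7 peaks, and its 3′UTR took 33.3%, 36.4% and 39.3% of its same-strand peaks.

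By mean covered share the order was Tgfbr1, Smad4, Smad2, Smad7, Bmpr2, Smad5, Acvr2b, Smad6, Smad3 with its wide peak included, and Tgfbr2. This order rests on whole peaks as deposited and was not computed without the padding. Most neighbours did not keep their order in every library. Smad4 was above Tgfbr1 in replicates 1 and 3 and below it in replicate 2. Of the neighbours, Smad4 stayed above Smad2 in all 3 libraries, by 15.2 ± 11.9 percentage points, and Smad5 above Acvr2b, by 9.64 ± 1.28 (SD, n = 3). These 2 of 9 neighbouring pairs were singled out because their order held in all libraries, so no test is given. Tgfbr1 and Smad4 took the first and second places in every library.

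**Figure D3:**
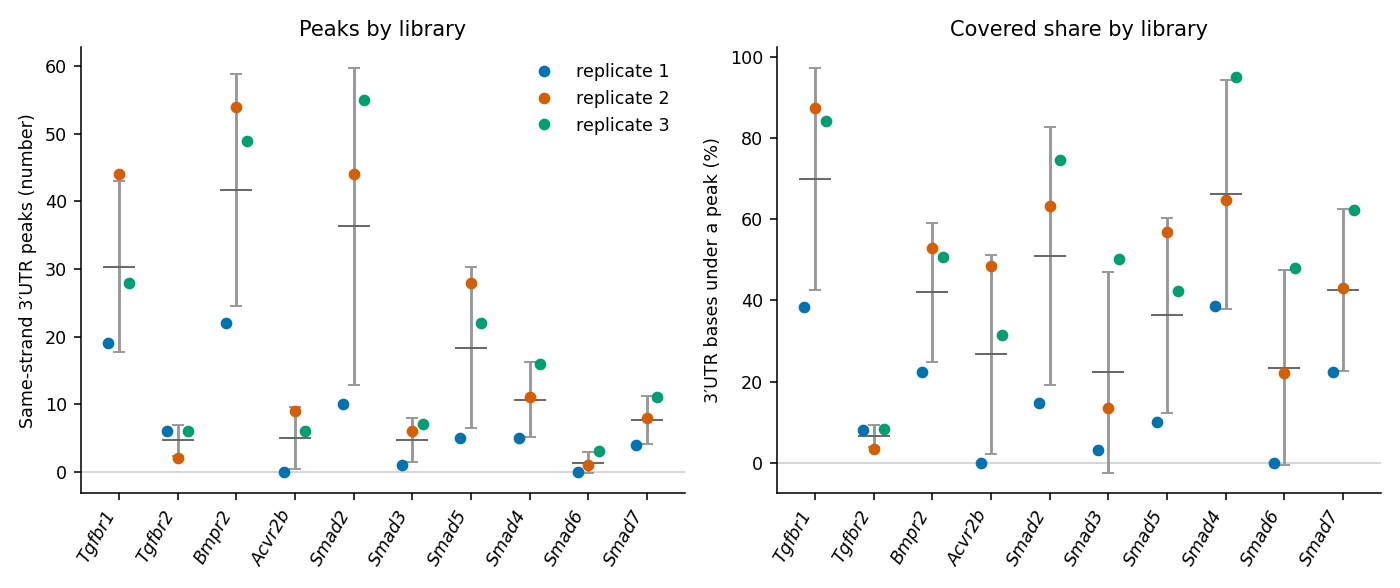
Number of same-strand 3′UTR peaks (left) and percentage of 3′UTR bases under a peak (right) for each gene in replicates 1, 2 and 3; grey lines and bars are the mean ± SD over 3 libraries, on linear axes. Tgfbr1 and Smad4 have the highest mean covered shares, 69.9% and 66.1%, and Tgfbr2 has the lowest, 6.61%.

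The 46 recurrent regions of the 7 genes were 8 to 277 nt long with a median of 81.5 nt, and summed to 3467 nt or 10.6% of those 3′UTRs, against 7.11% for all 3010 genes with such a region. They were richer in A and T than the rest of the same 3′UTRs, 65.3% against 58.3%. The 7839 regions of all genes showed the same contrast, 64.2% against 57.5%. The median region was centred 40.7% of the way along the 3′UTR, against 44.4% over all genes. When each 3′UTR was cut into 5 equal parts, 12 of the 46 regions lay in the first part and 3 in the last, against 1886 and 1529 of the 7839 regions of all genes.

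Seeds of 66 miRNA families were searched as matches to positions 2 to 8, on the transcribed strand, and 38 of the families had a same-strand peak on a mature arm in all 3 libraries. A missing arm peak does not show that a family was absent from Ago2. The arms of miR-9-5p, miR-103-3p and miR-128-3p, families with 3, 3 and 2 annotated loci, had a peak in 0 libraries. The let-7 family, with 13 loci, had one in all libraries at 4 of them. Whether the number of loci plays a part was not tested. The 10 genes held 231 matches, of which 65 were covered in no library, 67 in 1, 72 in 2 and 27 in all 3. By comparison, 32.6%, 29.1%, 29.2% and 9.09% of the 3′UTR bases were covered in 0, 1, 2 and 3 libraries, close to the shares of the matches, 28.1%, 29.0%, 31.2% and 11.7%. In the 7 genes with a recurrent region, matches were found at 7.79 per 1000 nt inside the regions and 5.85 outside, and over all genes at 6.63 and 6.30. For families with an arm peak the values were 4.04 inside and 3.56 outside (all genes 4.10 and 3.46), and for families without one 3.75 and 2.29 (all genes 2.53 and 2.84), from 14 and 13 matches inside. A listed match was present in 17 of the 46 regions, 37%, against 32.4% of all regions, so most regions had none. The counts are small, and matches in one region can overlap.

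Covered and uncovered matches were spread unevenly over the genes. Of 31 matches in Tgfbr1, 1 was covered in no library, 4 in 1, 16 in 2 and 10 in all 3, whereas of 36 in Tgfbr2 24 were covered in no library and 5 in all 3. Bmpr2 held 44 matches, with 15 in no library and 6 in all, and Smad2 34, with 3 and 2. In Smad5 13 of 27 matches were covered in 2 libraries and 0 in all 3. Smad4 and Smad7 held 13 each, of which 0 and 4 were covered in no library, while Smad3, Acvr2b and Smad6 held 20, 10 and 3, with 10, 1 and 1 covered in none. Of the 10 covered Smad3 matches, 5 lay under no peak but the one of 2827 nt in replicate 3, and without that peak 15 of 20 were uncovered. Tgfbr2, with the lowest mean covered share, had the most uncovered matches.

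Tgfbr1 held 10 of the 27 matches under peaks of all libraries, Bmpr2 6, Tgfbr2 5, and Smad2, Smad4 and Smad7 2 each. Families with an arm peak in all libraries accounted for 14 of the 27, and 8 of the 27 were 8mers. All 4 receptor 8mers of families with an arm peak are printed above: miR-181a-5p and miR-148a-3p in Tgfbr1, miR-17-5p in Tgfbr2 and miR-210-3p in Bmpr2. A miR-210-3p match was found in 0.115% of all recurrent regions and in no other 3′UTR of the 10 genes.

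The Tgfbr2 window was the most compact of these sites. Within 12 bases, chr9:116090072-116090083, it held matches to miR-19b-3p, miR-130a-3p, miR-17-5p and miR-142a-5p, which share bases and so are not independent. The seeds of miR-17-5p, miR-19b-3p and miR-130a-3p contain the same run of bases at shifted positions. The peaks over the miR-17-5p match were 96, 114 and 94 nt wide in replicates 1, 2 and 3, and the match centre lay 2.5 nt downstream and 6.5 and 1.5 nt upstream of their centres. All 4 matches stayed under a peak in every library after 30 nt were removed from each side of each peak. Over all genes, recurrent regions held a match to these families in 1.15%, 1.1%, 1.4% and 1.77% of cases, in the order just named.

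The miR-21a-5p site of Smad7, at chr18:75395530-75395536, was an 8mer 1165 nt from the stop codon. It lay in a region of 93 nt, chr18:75395500-75395592, covered in all 3 libraries. Replicate 1 had 1 peak over it, 93 nt wide, and replicates 2 and 3 had 2 each, 99 and 119 nt and 86 and 101 nt wide. Its centre was 13 nt upstream of the peak centre in replicate 1. In replicates 2 and 3 it fell between the centres of neighbouring peaks, 26 nt downstream and 38 nt upstream, and 14.5 nt downstream and 44 nt upstream. After trimming by 30 nt it was under a peak in 1 library. The arm of miR-21a-5p itself had a peak in all 3 libraries.

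Another 3 members held a miR-21a-5p match, making 4 of 10, against 7.18% of all genes and 20.3% of the longest length class. The Smad7 site was named when the genes were chosen, so its place in that count was fixed beforehand. The 8mer of Bmpr2 at chr1:59877132-59877138 was covered in replicate 2 alone, the match of Tgfbr1 at chr4:47412735-47412741 in replicates 1 and 2, and that of Tgfbr2 at chr9:116090136-116090142 in no library, although it lies close to the covered window. Smad7 was thus the member whose miR-21a-5p match was covered throughout. Over all genes 0.727% of recurrent regions held such a match.

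The second Smad7 region, 84 nt at chr18:75394399-75394482 and 34 nt from the stop codon, held a miR-15a-5p 8mer at chr18:75394434-75394440. Its peaks were 99, 93 and 99 nt wide, and the match centre lay within 8 nt of each peak centre. This match stayed covered in all libraries after trimming. Matches to miR-15a-5p were common, with 16 in 9 of the 10 genes, against 20.3% of all genes and 46.4% of the longest length class, and this was the 1 in a recurrent region. A let-7a-5p match occurred in Tgfbr1 and Smad2, covered in 2 libraries and 1 library, and in no recurrent region.

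**Figure D4:**
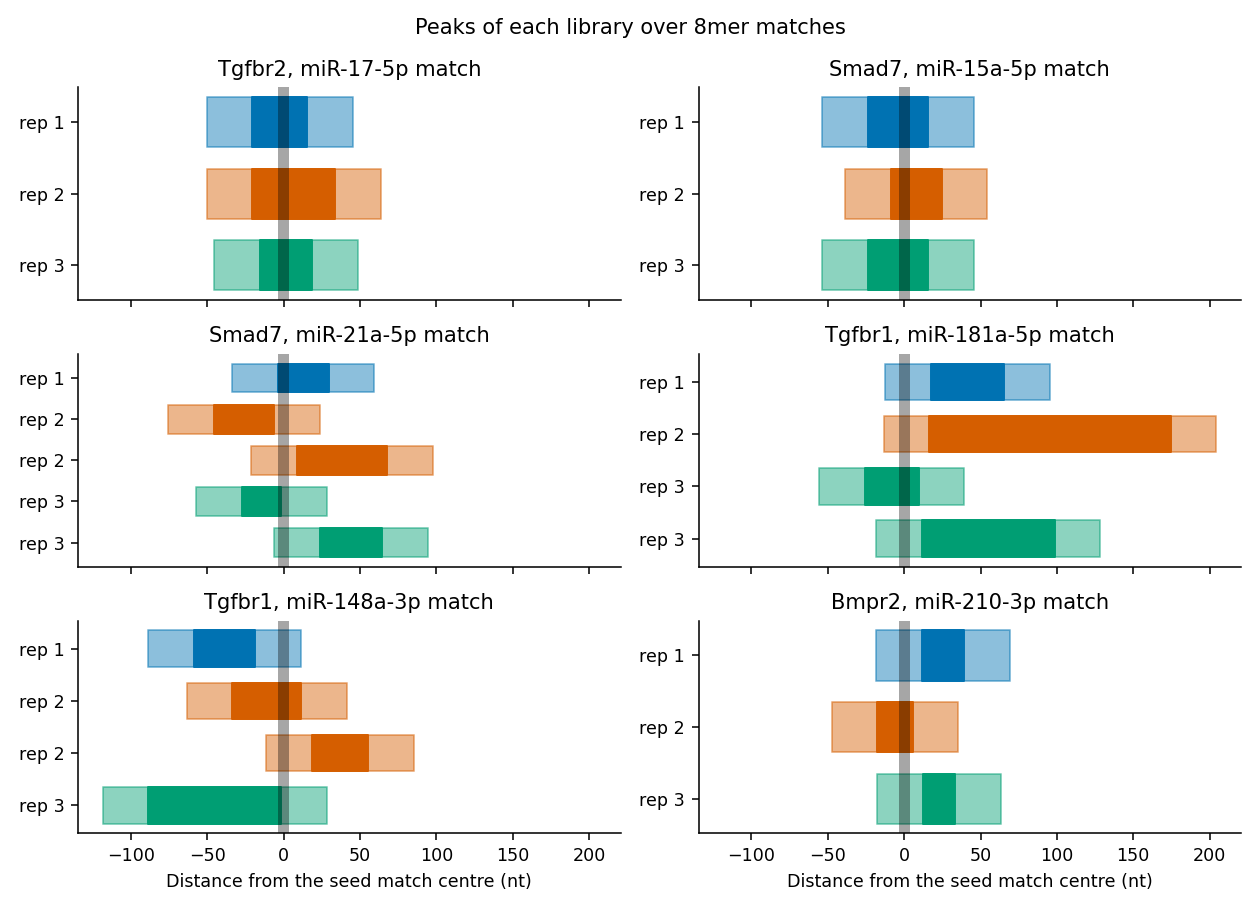
Peaks of replicates 1, 2 and 3 over 6 8mer seed matches, in nt from the centre of the match (grey band) in the direction of transcription; pale bars are peaks as deposited and dark bars the part left after removing 30 nt from each side. Over the Tgfbr2 and the Smad7 miR-15a-5p matches the dark parts of all libraries include the match, and over the Smad7 miR-21a-5p match that of replicate 1 does.

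In Tgfbr1 the miR-181a-5p 8mer, 416 nt from the stop codon, lay near the edge of the peaks of replicates 1 and 2, whose centres were 41.5 and 95.5 nt downstream, and closer to the centre of 1 peak of replicate 3, at 8 nt. The miR-148a-3p 8mer, 3205 nt from the stop codon, was under peaks of 100, 105 and 147 nt in replicates 1, 2 and 3, with a further peak of 97 nt in replicate 2. After trimming by 30 nt each of these 8mers was covered in 1 library. The miR-192-5p match of Tgfbr1 stayed covered in all 3 after trimming. Its centre lay 0.5 nt from that of the replicate 1 peak, 4.5 and 37 nt from those of 2 peaks of replicate 2, and 104.5 and 90.5 nt from those of 2 peaks of replicate 3, which were 230 and 274 nt wide. With peaks of 86 to 200 nt alone it was covered in 2 libraries. Bmpr2 held a miR-192-5p match too, under peaks of 107, 144 and 139 nt with a further one of 81 nt in replicate 3, and it stayed covered in 2 libraries after trimming. Recurrent regions with this match were 0.255% of all. The miR-210-3p match of Bmpr2 lay under peaks of 88, 83 and 81 nt, and it was covered in 1 library after trimming and in 1 with peaks of 86 to 200 nt alone.

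The remaining matches of families with an arm peak were to miR-182-5p in Tgfbr1, miR-18a-5p in Smad2 and miR-144-3p in Smad4. That of Smad2 lay 120 nt from the stop codon and stayed under a peak in 2 libraries after trimming, and that of Smad4 lay 534 nt from it and stayed in 0. Families without an arm peak in all libraries gave 13 matches: miR-101a-3p at 2 sites, miR-190a-5p, miR-216a-5p, miR-541-5p and miR-96-5p in Tgfbr1, miR-410-3p and miR-135a-5p at 2 sites each in Bmpr2, miR-216a-5p in Tgfbr2, miR-183-5p in Smad2 and miR-217-5p in Smad4. In Smad5, Acvr2b, Smad3 and Smad6 no listed match was covered in all libraries.

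The wider pathway was read from a list of 88 genes, of which 86 had an annotated 3′UTR. Of the 86, 38 showed a 3′UTR peak in each library, 44.2% against 22.4% of all genes, and 31 a recurrent region, 36.0% against 14.3%. The list was chosen with earlier results of these data known, and the share over all genes includes genes that N2A cells may not express. Leaving out the 10 genes above, 30 of 76 had a peak in all libraries, 39.5%, and 24 had a recurrent region, 31.6%. Of these 76 genes, 26 belonged to the longest length class, where 17 had a peak in all libraries, against 49.9% of all genes in that class, and 13 a recurrent region, against 30.3%. By role, of 23 ligands, 2 had a peak in all libraries and 15 had none in any. Of 9 extracellular antagonists 1 had a peak in all libraries. The counts were 4 of 7 type I receptors, 3 of 5 type II receptors, 1 of 5 co-receptors, all 5 receptor-regulated Smads, the common Smad4, 1 of 2 inhibitory Smads, 9 of 14 intracellular regulators, 5 of 6 cofactors and 6 of 9 target genes. The ligands had a median 3′UTR of 1234 nt and the intracellular regulators of 3315 nt. Within the longest length class, where 49.9% of all genes had a peak in every library, the counts were 2 of 3 ligands, 0 of 2 extracellular antagonists, 3 of 5 type I receptors, 3 of 3 type II receptors, 1 of 2 co-receptors, 4 of 4 receptor-regulated Smads, 7 of 10 intracellular regulators, 2 of 2 cofactors and 1 of 1 target gene. These numbers are small, and 6 of the 23 genes counted are the members named above. The difference between roles was not tested.

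**Figure D5:**
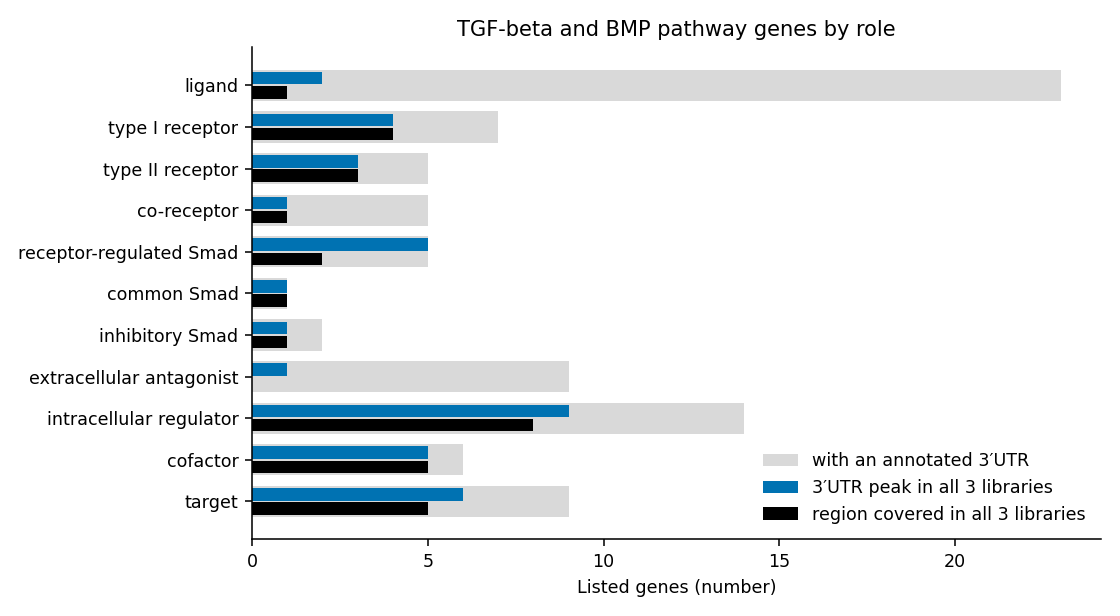
Number of listed TGF-beta and BMP pathway genes per role with an annotated 3′UTR (grey), with a same-strand 3′UTR peak in all 3 libraries (blue) and with a region of 8 nt or more covered in all 3 libraries (black). The ligands stand at 2 of 23 and the intracellular regulators at 9 of 14 for a peak in all libraries, and 3′UTR length differs between the roles.

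Among listed genes outside the 10, the ligand with the longest recurrent length was Tgfb2, with 10, 25 and 17 3′UTR peaks and 424 nt in 6 regions. Of the receptors, Bmpr1a, the type I partner of Bmpr2, had 8, 32 and 29 peaks and 530 nt, Acvr1b 4, 19 and 10 peaks and 141 nt, Acvr1 2, 3 and 5 peaks and 44 nt, and Acvr2a, the relative of Acvr2b, 10, 32 and 17 peaks and 302 nt. The co-receptor Tgfbr3 had 4, 15 and 16 peaks and 190 nt. Replicate 1 was the low library for each of these.

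Nuclear and cytoplasmic regulators of Smads followed. Skil and Ski, co-repressors that bind Smads, had 13, 33 and 33 peaks with 910 nt and 5, 26 and 23 peaks with 251 nt. Smurf2, a ubiquitin ligase that Smad7 brings to the receptors, had 5, 23 and 12 peaks and 303 nt. Of the cofactors, Sp1 had 15, 38 and 33 peaks with 1284 nt in 13 regions, Crebbp 4, 9 and 8 peaks with 167 nt and E2f4 3, 4 and 4 peaks with 95 nt. Of the targets, Cdkn1a had 2, 7 and 10 peaks with 201 nt and Id2, a BMP target, 4, 3 and 5 peaks with 199 nt. Tgfbr1 with 1345 nt and Sp1 with 1284 nt had the longest recurrent lengths of the 86 genes.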

How the data were processed

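Ago2 HITS‐clip was measured in 3 samples of N2A cells. The authors called peaks per sample and deposited their chromosome, start, stop, strand, score and sample. Per the labels, the processing notes name FastQC, cutadapt, STAR and mm10, without versions. The peak caller and its threshold are not given in the sources used here. The deposited score has no stated unit, was 60 for 99.3% of peaks and was used in 1 alternative alone, which kept the peaks at 60. The table held 0 further columns of per-sample values.

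Starts were read as counted from 0. The lowest was -30, which was read as padding of 30 nt at either end of a peak. Altogether 1021 peaks off the nuclear primary chromosomes were left out. Peaks were assigned by midpoint to the parts of GENCODE M21 transcripts on the same strand, with the longest protein-coding 3′UTR of each gene and the stop codon excluded, which gave 21021 of 21938 protein-coding genes. Bases and regions were read from whole peaks. A recurrent region was a stretch of 8 nt or more under peaks of each library. Seeds came from RefSeq mature miRNAs, 66 of 75 listed families being found, and an arm peak had to cover at least 15 nt of a mature arm. Genes outside the 10 were named when among the 3 longest recurrent lengths of their role in the list. A target gene that this rule selects is not reported here. Members and lists were chosen with earlier results of these data known. With 1 group and intervals without counts, values are described over libraries as mean ± SD (n = 3), with sign-flip permutations over libraries and Wilson intervals for shares. Alternatives changed peak width, score, trimming, the 3′UTR model, assignment by midpoint, overlap, site type, the number of libraries and single libraries. Scripts (Python 3.11.15, numpy 2.4.6, pandas 2.3.3, pysam 0.24.0, scipy 1.17.1) were tested on simulated data.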

Additional observations from a re-analysis of the deposited data

How the results depend on the processing

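Of 67 alternative values for 7 counts and lengths, 53 stayed within 1.5 times the reported value and 14 moved. The counts of genes with a peak or a region were not among those that moved. For the 10 genes, however, this rule left no room for a move upward. Genes with a region went from 7 to 10 without replicate 1 and still counted as unmoved. The libraries covering the Smad7 miR-21a-5p match fell from 3 to 2 with any library left out, which also counted as unmoved. The 46 recurrent regions became 26 with peaks of 86 to 200 nt alone, 121 when 2 libraries sufficed, and 48 to 111 when 1 library was left out. Their 3467 nt became 1704 with peaks of 86 to 200 nt, 720 after trimming by 30 nt, 14635 in at least 2 libraries, and 4068 to 12710 with 1 library left out. The 27 seed matches became 17, 8 and 99 under those settings in that order, 31 to 84 with 1 library left out, 8 for 8mers alone and 90 with 6mers added. The highest values of each range came without replicate 1, the library with the fewest 3′UTR peaks. The Smad7 miR-21a-5p match was covered in 1 library after trimming. Narrower peaks and fewer required libraries change these numbers by construction. The covered shares of the genes and their order were not computed for trimmed peaks. The mean number of 3′UTR peaks per library ran from 129 to 205 and their share of gene peaks from 25.9% to 39.5% over the alternatives. The strand ratio of 28.4 ran from 17.2 without replicate 2, a move of over 1.5 times, to 39.9 without replicate 3. Its SD over libraries, 110.3, is too wide to judge any of these values. It had no value for peaks of 86 to 200 nt, with 388 same-strand and 0 opposite-strand peaks. The read depth behind each peak is unknown, so how it limits the lower counts of replicate 1 was not tested. With 1 group there were no conditions to compare, and the differences between genes and transcript parts were taken within each library.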
